A study of Mus musculus with 4 samples.

Results

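Strong narrow promoter peaks are sites where trimethylation of histone H3 lysine 4 (H3K4me3) was both intense and compact at the start of a protein-coding gene. They were selected on 2 measured values, the signal value that the authors gave each peak (at least 50) and the peak's width (under 2000 bp), and on a transcription start site (TSS) of a protein-coding gene within 1000 bp. Of the 41953 peaks of the replicated list on the 19 autosomes and the X, 17343 lay within 1000 bp of such a TSS, and 1301 of these met both limits. A further 3911 promoter peaks had the same signal value and a width of 2000 bp or more (strong wide), and 12131 were weaker. Of 1350 strong narrow peaks anywhere, 49 had no coding TSS in reach and were left out.

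The peaks came from chromatin immunoprecipitation sequencing of gastrocnemius, the large calf muscle, of adult female B6CASTF1/J mice aged 2 months, F1 hybrids between C57BL/6J and CAST/EiJ. Pool E (biological replicate 1) and pool F (biological replicate 2) were each made from 2 biosamples and gave 2 technical libraries. All 4 libraries shared tissue, strain, sex and age, with no treatment and no mutation, so only gene groups, peak classes and the 2 pools could be compared. Whole tissue was used, so marked promoters of fibres and of other cells were read together.

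H3K4me3 is written at the start of transcribed genes by the SET1 and MLL complexes, which are drawn to unmethylated CpG-rich DNA. The mark typically sits on the first nucleosomes after the TSS. In many tissues its broadest domains cover genes of cell identity, while genes that nearly all cells use often carry compact peaks. Many promoters drive a pair of genes, or a gene and a noncoding transcript, in opposite directions from a shared stretch of open chromatin.

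To show what such promoters look like, the bases around the TSS are given for members described below, from RefSeq on GRCm38.p6, the same build as the peaks (mm10). Each runs 5′ to 3′ on the strand of its gene, from 200 bp before the TSS, which is base 201. Capitals mark exact matches, on either strand, to the short motifs listed after the sequences. Zkscan1, a zinc finger gene, had the highest signal value, and lies at chr5:138084920-138085169 (plus strand). Ift88 (chr14:57423862-57424111, plus strand) and Mrps22 (chr9:98601596-98601845, minus strand) had the highest signal values with an ETS match in the lists of cilium and of mitochondrial ribosome genes. Ccp110 (chr7:118712352-118712601, plus strand) and Zbtb40 (chr4:137048646-137048895, minus strand) had the highest with a ZNF143 and a CGCG match.
Zkscan1: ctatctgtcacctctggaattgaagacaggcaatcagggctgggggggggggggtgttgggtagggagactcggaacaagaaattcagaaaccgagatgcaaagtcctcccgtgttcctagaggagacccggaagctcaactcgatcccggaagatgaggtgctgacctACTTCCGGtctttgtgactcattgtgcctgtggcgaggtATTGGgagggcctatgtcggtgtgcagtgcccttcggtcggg
Ift88: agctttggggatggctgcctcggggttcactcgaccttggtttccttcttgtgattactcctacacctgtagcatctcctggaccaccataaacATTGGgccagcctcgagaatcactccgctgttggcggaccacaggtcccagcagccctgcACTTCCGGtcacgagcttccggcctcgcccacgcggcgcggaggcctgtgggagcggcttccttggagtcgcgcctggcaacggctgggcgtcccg
Mrps22: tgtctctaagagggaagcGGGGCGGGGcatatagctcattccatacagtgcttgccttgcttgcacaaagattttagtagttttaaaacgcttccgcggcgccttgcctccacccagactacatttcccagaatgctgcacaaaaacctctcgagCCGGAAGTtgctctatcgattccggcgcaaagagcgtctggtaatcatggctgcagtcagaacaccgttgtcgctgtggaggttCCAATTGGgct
Ccp110: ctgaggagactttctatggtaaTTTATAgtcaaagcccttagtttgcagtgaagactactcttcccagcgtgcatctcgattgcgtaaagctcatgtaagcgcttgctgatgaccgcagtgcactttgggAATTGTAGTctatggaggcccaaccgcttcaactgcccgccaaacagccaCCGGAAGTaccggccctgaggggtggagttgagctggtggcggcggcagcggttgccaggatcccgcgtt
Zbtb40: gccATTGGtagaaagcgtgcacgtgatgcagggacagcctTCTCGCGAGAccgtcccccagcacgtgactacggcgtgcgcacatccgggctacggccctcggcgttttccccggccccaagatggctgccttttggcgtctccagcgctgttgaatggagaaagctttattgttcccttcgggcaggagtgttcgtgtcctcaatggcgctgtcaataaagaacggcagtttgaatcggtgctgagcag

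Divergent pairs are shown on the plus strand, centred at base 101 on the midpoint between their closest TSSs, to show how little sequence separates them. Irak3 and Tmbim4 (chr10:120201488-120201687) started 3 bp apart, and no motif matched these 200 bases. Zfp473 and Vrk3 (chr7:44748526-44748725) started 19 bp apart, with an ETS match across the midpoint.
Irak3-Tmbim4: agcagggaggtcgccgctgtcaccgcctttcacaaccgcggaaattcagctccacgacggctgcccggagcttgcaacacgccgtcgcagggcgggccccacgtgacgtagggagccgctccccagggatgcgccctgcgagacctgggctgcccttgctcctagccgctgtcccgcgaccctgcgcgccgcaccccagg
Zfp473-Vrk3: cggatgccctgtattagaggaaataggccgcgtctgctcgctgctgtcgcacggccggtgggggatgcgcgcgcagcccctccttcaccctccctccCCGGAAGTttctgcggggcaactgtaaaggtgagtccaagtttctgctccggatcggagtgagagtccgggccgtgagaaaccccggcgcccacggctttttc

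The 11 motifs were ETS (CCGGAAGT), NRF1 (CGCATGCG), YY1 (AAGATGGCG), the GC box (GGGGCGGGG), NF-Y (CCAAT), CRE (TGACGTCA), ZNF143 (ACTACAATT), the CGCG element (TCTCGCGA), the TATA box (TATAAA), MEF2 (CTAAAAATA) and the E-box of myogenic factors (CAGCTG). All were searched on both strands from 200 bp before to 50 bp after the TSS nearest to the peak's centre. Matches may overlap, as the NF-Y matches on both strands of Mrps22 and the CGCG matches of Zbtb40 do. Their shares in members, strong wide peaks and all promoter peaks are given with the motif results.

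The members were compact by choice. Their median width was 1725 bp (interquartile range 1538 to 1866 bp, lowest 735 bp) and their median signal value 55.3 (50.01 to 63.6), against 2918 bp and 56.6 in strong wide peaks. Just inside the signal limit were the peaks of Lima1 (50.01), 3300002I08Rik (50.02) and Hap1 (50.03), and just outside it those of Ero1lb, Ect2 and Wdr81 (49.98 each). Just inside the width limit were Map3k13 and Mtfr1 (1999 bp each) and Cops7a (1998 bp), and just outside it Hint1, Stk38l and Washc1 (2000 bp each). The limits thus pass through a dense cloud of promoters and mark no gap in it.

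**Figure D1:**
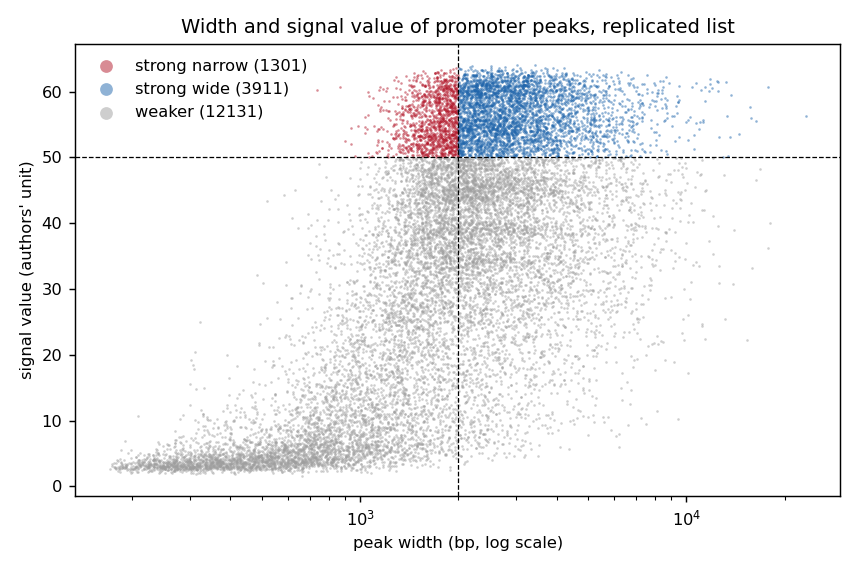
Width (bp, log scale) and signal value (the authors' unit) of the 17343 promoter peaks of the replicated list, 1 point a peak. Dashed lines are the limits of 50 and 2000 bp that chose the 1301 strong narrow peaks (red), beside 3911 strong wide (blue) and 12131 weaker ones (grey), and no empty band separates the classes.

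Members lay across the TSS. A coding TSS lay inside 1290 of the 1301 peaks (99.2%), against 99.8% of strong wide and 87.7% of all promoter peaks. The median member began 683 bp before the TSS nearest to its centre and ended 997 bp after it. For strong wide peaks these were 1140 bp and 1726 bp. The summit lay downstream of that TSS in 1075 members (82.6%, Wilson interval 80.5 to 84.6%), against 70.3% of strong wide peaks and 70.3% of all promoter peaks. Its median place was 129 bp downstream (interquartile range 72 to 178 bp), against 138 bp (−110.5 to 259 bp) in strong wide peaks. The medians lie close together, and the places spread less among the members. Members were chosen for a width under 2000 bp, and a summit lies inside its peak. Their shorter reach and smaller spread are thus partly set by that choice.

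Their genes were shorter by annotation. The median gene of a member spanned 22504 bp and its median first exon 143 bp, against 31571 bp and 180 bp at strong wide peaks and 28844 bp and 177 bp at all promoter peaks. Across the 1301 members, width and first exon length had a Spearman rho of 0.0498 and a Pearson r of 0.0271. Of the members, 1202 (92.4%) served 1 coding gene, 96 served 2 and 3 served 3. Among strong wide peaks 82.6% served 1 gene, and among all promoter peaks 90.2% did. Genes were counted within 1000 bp of the peak, so a wider peak reaches over more sequence.

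The member with the highest signal value was Zkscan1 (chr5:138084549-138086515), a KRAB and SCAN zinc finger gene, at 63.6 and 1967 bp. In the lists of the pools its peak had 69.0 and 2167 bp in pool E, and 59.3 and 1790 bp in pool F. Vti1b, a SNARE of endosome fusion, followed at 63.4, with 1977 bp in pool E against 1911 bp in pool F. Spg11, which acts in lysosome renewal, had 63.3, at widths of 1772 bp in pool E against 1746 bp in pool F. Med7, of the Mediator complex, had 63.3, with 1917 bp in pool E against 1863 bp in pool F. These peaks lay in the top 0.290% of the list of pool E and the top 0.217% of that of pool F.

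The next 8 by signal value were Ei24, an endoplasmic reticulum protein of autophagy, Fbxo7, an F-box subunit of a ubiquitin ligase, Psmc3ip, which aids strand exchange in meiosis, and Usp36, a nucleolar deubiquitinase. With them came Mtpn (myotrophin), Rfc1 (clamp loader of DNA replication), Rrp7a (ribosome assembly) and Lrrc59 (an endoplasmic reticulum membrane protein), at 62.9 to 63.1. By role these 12 genes span membrane transport, protein turnover, transcription and DNA metabolism.

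The narrowest members were of 2 kinds. Marf1 (735 bp), a regulator of oocyte RNA, Atf2 (896 bp), a CREB family transcription factor, and Rybp (937 bp), a Polycomb protein, each had another peak 87 to 109 bp away, and the TSS nearest to the centre of each of these peaks lay outside it. Rfc2 (865 bp), a clamp loader subunit, Exoc4 (937 bp), of the exocyst, and Gramd1c (967 bp), a sterol transfer protein, stood alone, with the next peak 3886 to 13493 bp away. In the pools Rfc2 measured 867 bp in pool E against 843 bp in pool F, Exoc4 980 bp and 924 bp, and Gramd1c 995 bp and 934 bp. The compact shape of these 3 promoters was therefore present in both lists.

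Adjacent peaks bore on the width of other members too. Another peak lay within 1000 bp of 159 members (12.2%), against 22.1% of strong wide and 25.9% of all promoter peaks, and within 300 bp of 128. Joined with those closer than 300 bp, these 128 spanned a median of 2456.5 bp (1476 to 6736 bp), and 17 of them stayed under 2000 bp. Atf2, Rybp and the pair Hmgb1 and Uspl1 each held 2 member peaks, at gaps of 87, 109 and 155 bp. In pool F a single peak of 2451 bp spanned both peaks of Atf2.

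Genes of cilia and centrosomes led the function lists. Of 86 such genes, 30 (34.9%) had a strong narrow peak and 13 (15.1%) a strong wide one, against 6.41% and 21.0% of all 21755 protein-coding genes. Of the cilium genes with a strong peak 71.4% had a narrow one, against 23.5% over all genes. Cilia are built by intraflagellar transport, a train of IFT proteins that carries cargo along the axoneme, and the BBSome, a coat that moves membrane proteins. The gene lists are described by counts, with no test, since members and lists were chosen with earlier results known.

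Of the 14 Ift genes 7 had a strong narrow peak and 5 a strong wide one, Ift46 having both. Ift46, Ift88, Ift81, Ift57 and Ift22 encode subunits of complex B, which drives transport to the tip, and Ift122 and Ift43 subunits of complex A, which serves the return. The peak of Ift46 was 1178 bp wide, with 1180 bp in pool E against 1185 bp in pool F. That of Ift81 was 1260 bp wide, with 1243 bp in pool E against 1185 bp in pool F. Ift88, shown above with an ETS match 46 bp before its TSS, measured 1761 bp, with 1798 bp in pool E against 1739 bp in pool F.

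BBSome genes followed the same pattern in fewer members. Of 8 Bbs genes 3 had a strong narrow peak (Bbs5, Bbs9 and the chaperonin-like Bbs10) and none a strong wide one, and Ttc8, another BBSome subunit, and Arl6, the GTPase that recruits it, were members as well. Tctn1 and Tctn3, together with B9d2, Tmem17, Tmem231 and Tmem237 of the transition zone at the base of the cilium, were members. Tctn3 was among the narrower of them, at 1171 bp, with 1179 bp in pool E against 1065 bp in pool F. Of 32 Cep genes, for centrosomal proteins, 8 had a strong narrow peak and 5 a strong wide one, and all 32 also stand in the cell cycle list. Over these 30 peaks the median width was 1597 bp and the median signal value 52.3, against 1725 bp and 55.3 over all members.

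**Figure D2:**
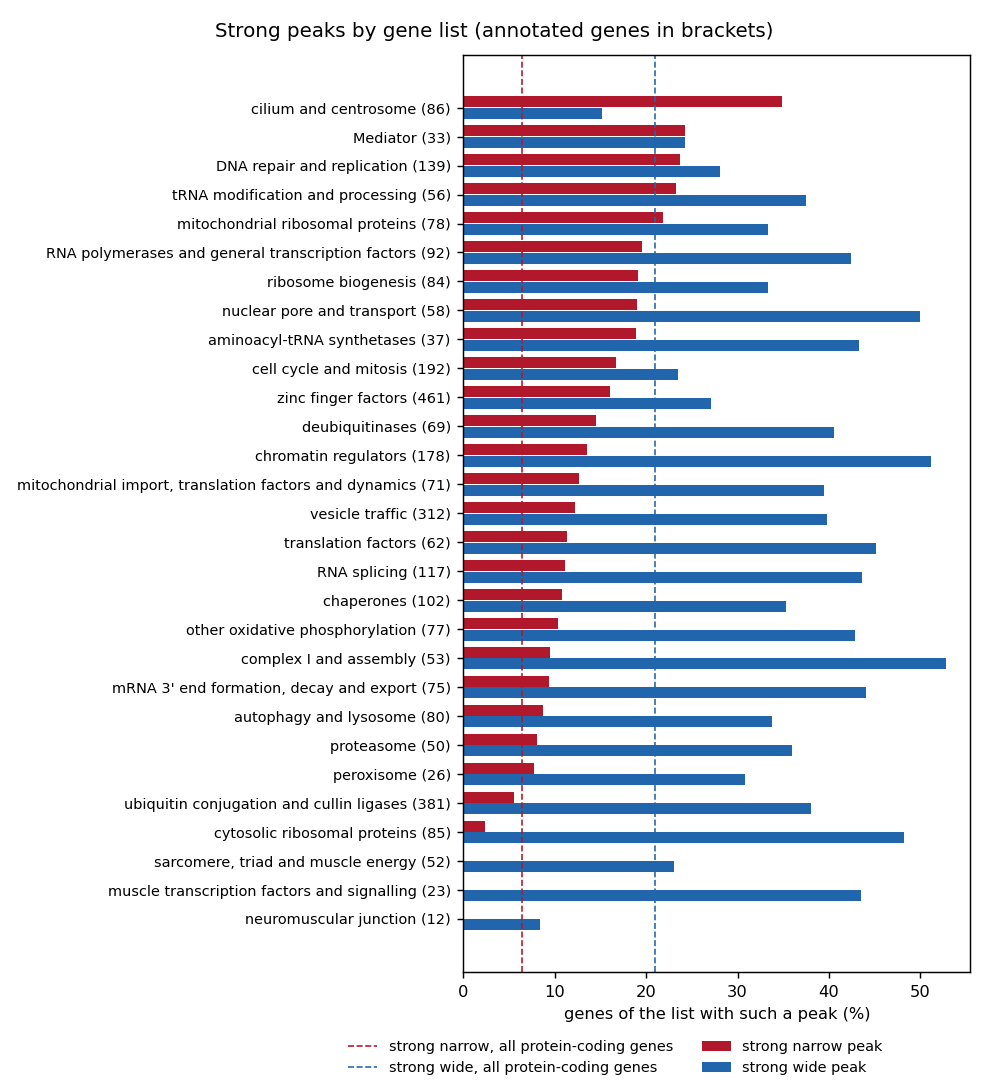
Share of the genes of each list (%) with a strong narrow peak (red, upper bar) and with a strong wide peak (blue, lower bar), for 26 function lists and 3 muscle lists, with the number of annotated genes in brackets. Dashed lines give the shares over all 21755 protein-coding genes (6.41% and 21.0%), and cilium and centrosome is the only list here whose red bar is the longer one.

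Genes of DNA replication and repair were the next large group. Of 139 genes 33 (23.7%) had a strong narrow peak and 39 (28.1%) a strong wide one. Of the 5 Rfc genes, whose products load the sliding clamp, 3 had a strong narrow peak (Rfc1, Rfc2 and Rfc5) and none a strong wide one. Among the members were the polymerase delta subunits Pold2, Pold3 and Pold4, the polymerase epsilon subunit Pole3 and the repair polymerases Polb and Poll. Of the 9 Fanc genes of the list, which act in the repair of DNA crosslinks, 5 were strong narrow (Fancc, Fance, Fancf, Fancg and Fancl) and 1 was strong wide. Fancd2, which the name rule of the list leaves out, lay at a member peak as well, shared with Emc3. The origin recognition complex went the other way, with Orc5 strong narrow and the other 5 Orc genes strong wide.

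Pold3 had a peak of 1866 bp (1937 bp in pool E against 1837 bp in pool F), and that of Rfc1 was 1729 bp wide (1792 bp in pool E against 1899 bp in pool F). The cell cycle list gave 32 of 192 genes (16.7%) with a strong narrow peak and 45 (23.4%) with a strong wide one. Its members included Cdc23, a subunit of the anaphase-promoting complex, the kinesin Kif15, the condensin subunits Ncapg2 and Ncaph, and the kinetochore genes Cenpt, Cenpm and Spc24. Cenpt, at 1068 bp, measured 1087 bp in pool E against 977 bp in pool F. A promoter mark is not a measure of transcription, and these counts say nothing of division in the muscle.

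Genes of the transcription machinery had strong peaks of either width more often than protein-coding genes at large (6.41% narrow and 21.0% wide). Of the genes with a strong peak 50% in the Mediator list had a narrow one. In the list of polymerases and general factors 31.6% did, against 23.5% over all genes. Of 33 Mediator genes 8 (24.2%) had a strong narrow peak (Med4, Med7, Med9, Med19, Med23, Med24, Med28 and Med30) and 8 a strong wide one. Of 92 genes of RNA polymerases and general factors 18 (19.6%) had a strong narrow peak and 39 (42.4%) a strong wide one. Among the 18 were Polr2c, Polr2g and Polr2k of RNA polymerase II, Polr3a and Polr3k of RNA polymerase III, and Snapc1 and Snapc4 of the snRNA activating complex. Med24 had a peak of 1134 bp and Med19 one of 1144 bp, and both were narrower than the members' lower quartile of 1538 bp. Polr2c measured 1608 bp in the replicated list, 2212 bp in pool E against 1561 bp in pool F, so the pools disagreed on its side of the limit.

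Both lists of ribosomal proteins held more strong wide than strong narrow peaks, in unequal proportion. Of 78 mitochondrial ribosomal protein genes 17 (21.8%) had a strong narrow peak and 26 a strong wide one, while of 85 cytosolic ones 2 (2.35%) had a strong narrow peak and 41 (48.2%) a strong wide one. The 2 cytosolic members were Rpl27 and Rps24, and Rps24 shares its peak with Polr3a, whose TSS lies 67 bp away. Mrps2, Mrps5 and Mrps22 of the small mitochondrial subunit and Mrpl38 of the large one had the highest signal values of the group, at 60.1 to 62.1. With the list of pool F alone, at the same top 12.7% by signal value, strong narrow genes were 20 mitochondrial and 7 cytosolic. The list of pool E alone gave 19 and 3 in the same way. At a width limit of 2500 bp in the replicated list the counts were 33 and 19. Mrps22 was 1777 bp wide, with 1504 bp in pool E against 1763 bp in pool F.

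Genes that make and modify tRNA had strong narrow shares near that of the mitochondrial group. Of 37 aminoacyl-tRNA synthetases 7 (18.9%) had a strong narrow peak and 16 (43.2%) a strong wide one. Of the 7, 4 act in mitochondria (Aars2, Vars2, Iars2 and Lars2) and 3 in the cytosol (Farsa, Qars and Rars). Of 56 genes of tRNA processing 13 (23.2%) had a strong narrow peak and 21 (37.5%) a strong wide one. Among the 13 were Elac1, an endonuclease of tRNA ends, Elp3, the catalytic subunit of Elongator, and Trmt6 and Trmt11, methyltransferase subunits. Of 84 genes of ribosome assembly 16 (19.05%) had a strong narrow peak, including Rrp7a, Utp23, Exosc10 and Nob1, and 28 (33.3%) a strong wide one. Of 58 genes of the nuclear pore and transport 11 (18.97%) had a strong narrow peak, among them Nup35, Nup37, Nup85 and Nup107, and 29 (50%) had a strong wide peak.

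Zinc finger genes gave the largest count. Of 461 genes of the Zfp, Zkscan, Zscan and Zbtb names 74 (16.1%) had a strong narrow peak and 125 (27.1%) a strong wide one. The share differed by name: 64 of 394 Zfp and 4 of 11 Zkscan genes had a strong narrow peak, against 1 of 16 Zscan and 5 of 40 Zbtb genes, and 26 of the 40 Zbtb genes (65.0%) had a strong wide one. The list goes by name, so it holds Zfp36l2, an RNA-binding protein. Zfp143, whose human counterpart binds the ZNF143 motif, was itself a member, at 1948 bp and a signal value of 50.5.

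The muscle lists held no member. None of 52 genes of the sarcomere, triad and muscle energy, of 23 muscle transcription and signalling genes or of 12 neuromuscular junction genes had a strong narrow peak, while 12, 10 and 1 had a strong wide one. None of the genes of 9 lists of other cell types had one either, nor did any of the 1093 Olfr genes for odorant receptors, of which 4 had a peak at all. Over all protein-coding genes 6.41% had a strong narrow peak, and of those with any promoter peak 9.25% did. With 6 to 12 genes each, the cell type and neuromuscular junction lists are too short for a count of 0 to be read. All 12 muscle fibre markers were marked, at a median peak width of 7032.5 bp, and Ckm, Mylpf, Des and Actn3 were strong wide. Markers of endothelium (5 of 5), fibro-adipogenic progenitors (4 of 4) and satellite cells (3 of 3) were marked as well. So were those of smooth muscle (4 of 4), macrophages (4 of 4, signal values up to 8.02) and Schwann cells (3 of 4). All of these markers also lay below the 50 needed here, the highest being Prx of Schwann cells at 48.0. Those of adipocytes, hepatocytes and T and B cells (3 each) had no peak, although on the longer lists of these types 2 of 6, 1 of 6 and 2 of 6 genes had one. In all, 417 of the 1394 member genes (29.9%) stood on at least 1 of the 26 function lists, against 1098 of the 4566 genes with a strong wide peak (24.05%) and 3007 of all 21755.

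Divergent coding pairs were no more frequent among the members than among promoter peaks at large. A pair of coding genes pointing away from each other, with TSSs at most 1000 bp apart and both within 1000 bp of the peak, was found at 79 members (6.07%, Wilson interval 4.90 to 7.504%), against 510 strong wide peaks (13.04%, 12.02 to 14.1%) and 6.83% of all promoter peaks. The members' share lay near that of all promoter peaks, and below that of strong wide peaks by more than the counting error of either. A wide peak reaches more TSSs, and whether this bears on the difference was not tested. With the partner searched within 1000 bp of the central TSS, whatever the width, the difference was −6.30 percentage points. Without members and wide peaks that have another peak within 1000 bp it was −8.21 percentage points.

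The share did not fall steadily with width. It was 6.96% under 1500 bp, 4.45% from 1500 to 1750 bp and 6.82% from 1750 to 2000 bp, and then 10.3% from 2000 to 2500 bp and 18.1% from 2500 to 3000 bp. At 4000 bp or more it was 10.2%. The 3 narrow classes had overlapping intervals, so no order among them can be read.

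**Figure D3:**
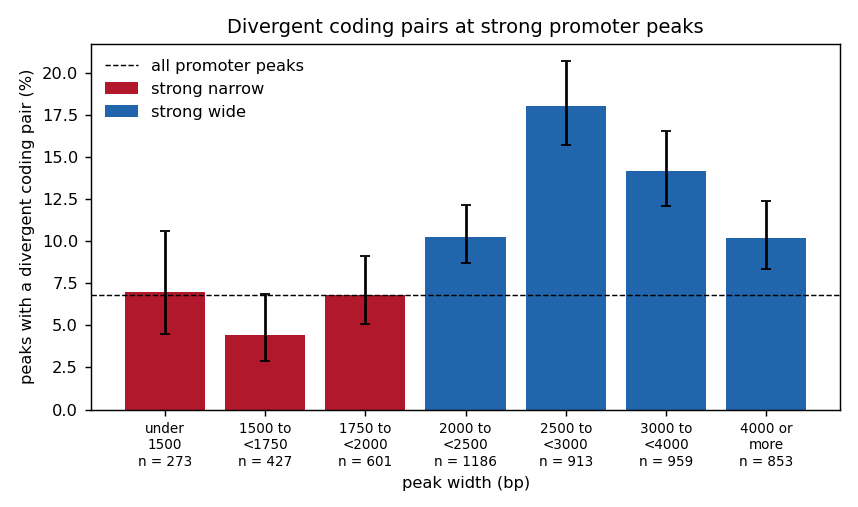
Share of strong promoter peaks (%) with a divergent coding pair, by peak width (bp), with 95% Wilson intervals and the number of peaks in each class. Strong narrow classes (red) lie between 4.45% and 6.96% and strong wide ones (blue) between 10.2% and 18.1%, and the dashed line marks all promoter peaks at 6.83%.

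The pairs of the members were tight. The median distance between the TSSs of a pair was 84 bp (3 to 753 bp), with 47 of 79 within 100 bp and 73 within 300 bp, against a median of 98 bp in strong wide peaks. After Irak3 and Tmbim4 (3 bp), an inhibitory kinase of interleukin signalling and a Golgi membrane protein, came Pld3 and 2310022A10Rik (15 bp), Zfp473 and Vrk3 (19 bp), Sgsh and Slc26a11 (21 bp), Trip13 and Brd9 (27 bp), and Emc3 and Fancd2 (30 bp). Pex11a and Wdr93 (32 bp) and Armh1 and Tmem53 (34 bp) followed. The most distant were Enkur and Thnsl1 (359 bp), Spaca9 and Ak8 (437 bp), Plag1 and Chchd7 (465 bp), and Tas1r1 and Nol9 (753 bp).

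Several pairs joined genes of the function lists. Mbd4 and Ift122 (99 bp) put a DNA glycosylase beside a transport subunit of the cilium, Trmt6 and Mcm8 (86 bp) a tRNA methyltransferase beside a helicase of repair, and Rad9b and Vps29 (136 bp) a checkpoint gene beside a retromer subunit. Eme1 and Mrpl27 (47 bp) and Zfp661 and Mrps5 (128 bp) each held a mitochondrial ribosome gene. Of the 33 members of the DNA repair list 7 lay at such a pair, and of the 30 of the cilium list 3 did, beside 79 of all 1301 members. A paired peak can enter a list through either gene, so the shares on lists cannot be read against that over all members. Where a peak covers both TSSs of a pair, its mark cannot be given to either gene. Both TSSs needed only to lie within 1000 bp of the peak, so some pairs had a TSS outside it. The paired TSS of the taste receptor gene Tas1r1 (chr4:152038568) lay outside the peak, which starts at 152038889. That of its partner Nol9 (152039321) lay inside.

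Counting partners of any type gave the same picture. A divergent TSS of any annotated gene was found at 194 members (14.9%, 13.1 to 16.95%), against 25.3% of strong wide peaks and 14.9% of all promoter peaks. In 115 of them all partners were noncoding or other types, with 43 antisense genes, 25 lincRNAs, 16 processed transcripts, 13 bidirectional promoter lncRNAs and 11 genes of the TEC type among the closest partners. The median distance to these was 101 bp, against 132 bp in strong wide peaks. Examples were Trim37, a ubiquitin ligase gene, with the antisense gene Gm11491 at 119 bp, and Mok, a kinase gene, with the bidirectional lncRNA 4921507G05Rik at 90 bp. Unannotated upstream transcripts were not analysed here.

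Over the whole peak, how the members stood in CpG content depended on the minima. A GC content of at least 55% and a CpG ratio (CpG observed over CpG expected) of at least 0.75 were reached by 95 members (7.30%, 6.01 to 8.85%), against 8.57% of strong wide peaks and 7.96% of all promoter peaks. At looser minima (50% GC and a ratio of 0.6) 594 members did (45.7%, 42.97 to 48.4%), against 44.4% of strong wide peaks and 33.8% of all promoter peaks. The median ratio over the peak was 0.618 in members, 0.619 in strong wide peaks and 0.552 in all promoter peaks. Around the TSS the members and strong wide peaks stood apart: over 1000 bp centred there 460 members (35.4%, 32.8 to 37.99%) reached both minima, against 62.5% of strong wide peaks (61.0 to 64.0%) and 32.6% of all promoter peaks. The median ratio in that window was 0.716 in members, 0.808 in strong wide peaks and 0.664 in all promoter peaks. The CpG-rich stretch nearest to the TSS had a median length of 670 bp in members, 880 bp in strong wide peaks and 560 bp in all promoter peaks. In 12 members (0.922%) none lay within 1000 bp of the TSS, against 1.64% of strong wide and 14.5% of all promoter peaks. Within the members, width and the length of that stretch had a Spearman rho of 0.193 and a Pearson r of 0.150 over 1301 peaks read from the same 2 pools.

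ETS motifs were more frequent in members than in either comparison set. A match stood in 147 of the 1301 promoters (11.3%, Wilson interval 9.69 to 13.1%), against 6.67% at strong wide peaks (5.93 to 7.499%) and 4.78% at all promoter peaks. ETS factors such as GABPA act at many promoters of mitochondrial and other widely used genes. Ift88 and Mrps22 were shown because they hold a match. In their lists a match stood at 3 of the 30 cilium and 2 of the 17 mitochondrial ribosome member peaks, near the share over all members. NRF1 matched 4.61% of members, 2.74% of strong wide and 2.19% of all promoters, CRE 3.84%, 2.22% and 2.07%, and ZNF143 0.922%, 0.281% and 0.392%. Ccp110, a centriole gene that restrains cilium growth, held both a ZNF143 match 70 bp and an ETS match 20 bp before its TSS.

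Among the other motifs NF-Y, of only 5 letters, set the members apart from strong wide peaks beyond the counting error: it matched 31.7% of members (29.2 to 34.2%), 24.7% of strong wide peaks (23.4 to 26.1%) and 28.5% of all promoter peaks. YY1 matched 4.38% of members and 4.19% of strong wide peaks, against 2.27% of all promoters, and the CGCG element 1.92%, 1.99% and 1.11%. The GC box matched 19.9% of members (17.8 to 22.2%), 23.1% of strong wide peaks (21.8 to 24.5%) and 16.8% of all promoter peaks. TATA matched 2.84% of members and 2.51% of strong wide peaks, against 5.15% of all promoters. The 2 motifs tied to muscle regulators were rare or unremarkable. MEF2 matched 1 member promoter (0.0769%), 0.205% of strong wide peaks and 0.398% of all promoter peaks. Over 1000 bp centred on the TSS it matched 15 members (1.15%), against 0.844% and 1.34%, so the lower share from 1 match did not hold there. The E-box matched 13.1% of members, 12.6% of strong wide peaks and 15.8% of all promoter peaks. At least 1 of ETS, NRF1, YY1, CRE, ZNF143 and the CGCG element stood in 311 members (23.9%), 16.8% of strong wide peaks and 11.8% of all promoter peaks. These are matches of letters, and binding of the factors was not measured.

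**Figure D4:**
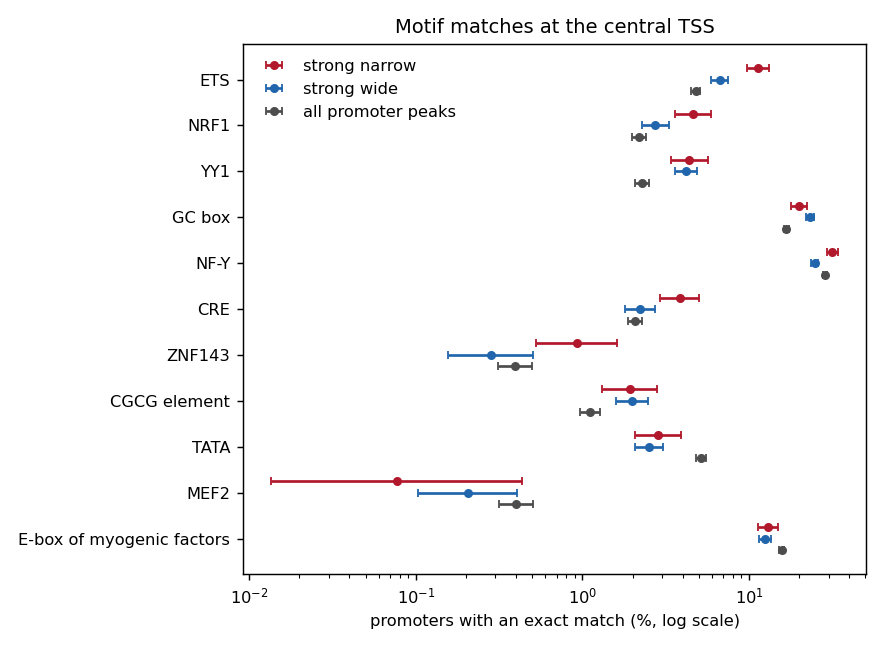
Share of promoters (%, log scale) with an exact match to each of 11 motifs from 200 bp before to 50 bp after the TSS nearest to the peak's centre, with 95% Wilson intervals. ETS matched 11.3% of strong narrow (red), 6.67% of strong wide (blue) and 4.78% of all promoter peaks (dark grey), and MEF2 rests on 1 match among the members.

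Both pools held every member. In each pool's own list all 1301 were overlapped by a peak, as were all 3911 strong wide peaks and 95.5% of all promoter peaks, and since the reads of both pools made the replicated list, this describes stability and is no independent check. With a reciprocal overlap of at least 80% in both pools 1238 members remained (95.2%), against 91.7% of strong wide and 82.0% of all promoter peaks. The median member was covered to 99.7% in pool E and 97.9% in pool F. More than 1 peak of pool E overlapped 7 members (0.538%), against 3.30% of strong wide and 2.36% of all promoter peaks. In pool F this held for 5 members (0.384%), against 8.92% and 6.58%. Members were chosen for a width under 2000 bp, and whether this bears on these shares was not tested.

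The widths differed modestly between the pools. The median was 1760 bp in pool E against 1672 bp in pool F, and the peak was wider in pool E at 961 members (73.9%), as it was at 73.1% of all promoter peaks. The median absolute difference was 98 bp, and it passed 500 bp at 42 members. Over the 1301 members the widths in the pools had a Spearman rho of 0.747 and a Pearson r of 0.526, and the signal values 0.715 and 0.558. The range of width is capped by the choice of members, and in strong wide peaks, which have no upper limit, the rho of width was 0.921 over 3911 peaks.

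Some members changed sides in a single pool. The main overlapping peak was under 2000 bp in pool E for 1149 members and in pool F for 1258, and in both for 1108. With the signal value limit put at the same top 12.7% of each list (54.1 in pool E and 47.6 in pool F), 1051 members (80.8%) were strong and narrow in pool E, 1119 (86.0%) in pool F and 915 (70.3%) in both. Those lost in pool E were mostly too wide (141, against 98 too weak and 11 both), and those lost in pool F mostly too weak (139, against 35 too wide and 8 both).

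**Figure D5:**
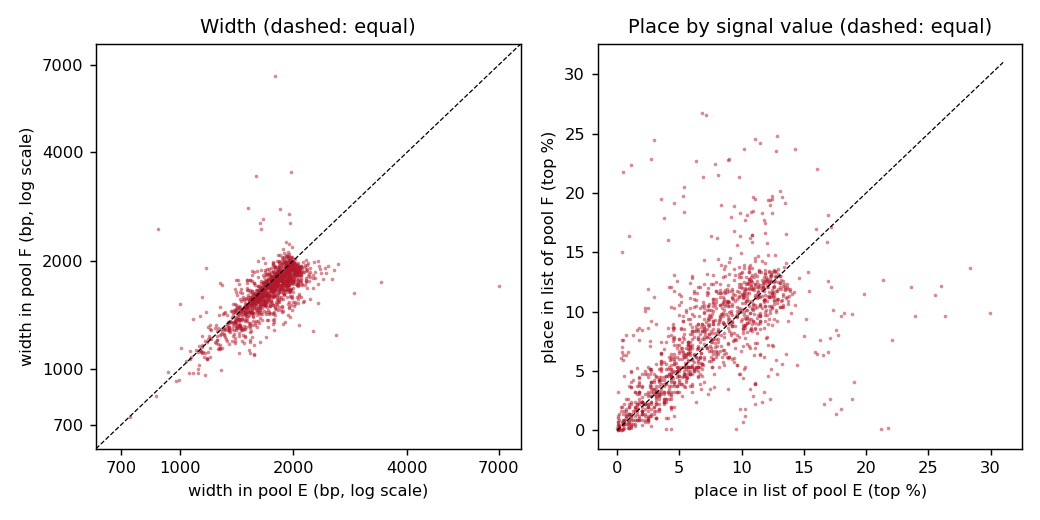
Each of the 1301 members in pool E (horizontal) and pool F (vertical), by width (left, bp, log scale) and by place in the pool's own list by signal value (right, top percent of the peaks). Dashed lines mark equal values, and most points lie near them, with median widths of 1760 bp in pool E against 1672 bp in pool F.

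The departures had names. Least covered in pool E were Abcb9, a lysosomal peptide transporter (77.6%), Ints1, of the Integrator complex (77.8%), Nhlrc1, the ubiquitin ligase malin of glycogen control (78.8%), Clpb, a mitochondrial disaggregase (81.5%), and Mrps22 (82.9%). Least covered in pool F were Mettl27 (68.4%), the pair Pex11a and Wdr93 (75.8%), Mrpl34 (76.1%), Zfp458 (76.2%) and Cdc23 (77.2%). A main peak over 3000 bp was found for Rab40c (3414 bp) and Ankrd13b (7026 bp) in pool E, and for Sin3a (6518 bp), Kat6b (3535 bp) and Mrpl34 (3440 bp) in pool F. All 5 of these members had another peak 85 to 133 bp away in the replicated list. Prim2, a primase subunit, had a signal value of 28.7 in pool E (top 29.9% of that list) and 50.3 in pool F (top 9.89%), at widths of 1662 bp and 1649 bp.

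The members were spread over all chromosomes, with few on the X. They made up 5.98 to 10.1% of the promoter peaks of each autosome and 9 of 551 (1.63%) on the X, where strong wide peaks were also fewer, at 4.72% against 18.4 to 27.6%. The 9 were 1810030O07Rik, Nkap, Zbtb33 (Kaiso, a zinc finger protein), Enox2, Tab3, Magt1, Bclaf3, Syap1 and Tceanc. Zbtb33 measured 1998 bp in pool E against 1906 bp in pool F, and Bclaf3 1070 bp and 1080 bp. Their signal values ran from 50.04 to 59.0, with 8 of the 9 at 53.4 or lower.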

How the data were processed

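H3K4me3 ChIP-seq was measured in gastrocnemius as 4 libraries in 2 pools. The authors deposited 4 narrowPeak lists on mm10: replicated peaks of both pools, and pseudoreplicated peaks of each pool and of the pools together. How reads were aligned and peaks called is not given in the sources used here. No list holds read counts or a value per library, and the depth is unknown. The authors' signal value of each peak has no stated scale and served only to choose, rank and describe peaks within a list. The deposited score was not used for any result and the deposited −log10 q-value chose nothing (members had a −log10 q-value of 305 or more).

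Peaks were joined to GENCODE M21 TSSs, and sequences were read from GRCm38.p6, with Python 3.11.15, numpy 2.4.6, pandas 2.3.3 and scipy 1.17.1. A peak's gene was that of the coding TSS nearest to its centre, and all coding genes within 1000 bp were counted for gene lists. Overlap between pools needed 1 bp or more, and the main overlapping peak was the one sharing most bases. CpG-rich stretches were runs of windows of 200 bp, moved by 10 bp, with at least 50% GC and a ratio of at least 0.6. Wilson intervals are at 95% and cover counting error only, and peaks are not replicates of mice. The search for divergent pairs was checked on gene positions with known answers.

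The members, gene lists, motifs and tests were chosen with earlier results of these data known. Named were the 12 members with the highest signal value, the 6 narrowest, the 3 on each side of each limit, the 8 closest and 4 most distant coding pairs, the 5 least covered in each pool, members with 3 or more genes, and up to 4 per function list by signal value. Other genes in the text were chosen after their values were seen, as were the counts by name stem. Alternatives were other limits of signal value, width and distance, joined peaks, the list of each pool alone and other windows.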

Additional observations from a re-analysis of the deposited data

How the results depend on the processing

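The count of members moved with its limits: 682 peaks at a signal value of at least 55, 273 under 1500 bp and 2487 under 2500 bp, beside 1301. With the list of 1 pool alone it was 1036 to 1624. The share of divergent coding pairs was 4.81% with TSSs inside the peak, 8.08% under 2500 bp and 4.56% from the 5′ end of each gene, beside 6.07%, and 5.97 to 6.66% with 1 pool alone. Its difference from strong wide peaks kept its direction under all 14 alternatives run, with −4.58 percentage points at a limit of 1500 bp and −4.29 from 5′ ends beside −6.97. Pairs of any type made up 13% within 300 bp and 12.4% inside the peak, and 13.8 to 14.9% with 1 pool alone. Agreement of the pools was 99.7% at a reciprocal overlap of 50% and 95.2% at 80%. CpG-rich peaks were 35.4% over 1000 bp at the TSS and 45.7% at looser minima (50% GC and a ratio of 0.6), with 33.8% of all promoter peaks at these, and 8 to 8.69% with 1 pool alone. The cilium list held 9 strong narrow genes under 1500 bp, and 26 to 28 with 1 pool alone at the same top share by signal value. The muscle and cell type lists together held 2 under 2500 bp. Of 150 values of the other function lists under alternatives 99 stayed within 1.5 times, and the limits of 1500 and 2500 bp gave most of the rest. The ETS share was 15.4% over 1000 bp, against 11.3% at strong wide and 7.85% at all promoter peaks. No paired analysis was possible because no list held a value per library, and unknown depth limits what the pools' widths can show.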

Other observations

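Membrane traffic gave 38 of 312 genes (12.2%) with a strong narrow peak and 124 (39.7%) with a strong wide one, against 6.41% and 21.0% of all protein-coding genes. Of the genes of this list with a strong peak 23.6% had a narrow one, near the 23.5% over all genes. Of 34 Vps genes, named for vacuolar protein sorting, 9 had a strong narrow peak and 14 a strong wide one. Vps8, of the CORVET tether, was 1449 bp wide, and Vps33a and Vps33b, fusion factors of endosomes and lysosomes, measured 1879 bp and 1904 bp. Vps29, a retromer subunit, shared its peak of 1586 bp with Rad9b.

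Chromatin regulators had 24 of 178 genes (13.5%) strong narrow and 91 (51.1%) strong wide. Of those with a strong peak 21.6% had a narrow one, near the 23.5% over all genes. The corepressor scaffolds Sin3a and Sin3b and the acetyltransferases Kat2a, Kat5, Kat6b and Kat8 were members. Kat2a had a peak of 1279 bp. Of 381 genes of ubiquitin conjugation and cullin ligases 21 (5.51%) had a strong narrow peak and 145 (38.1%) a strong wide one, while of 69 deubiquitinases 10 (14.5%) and 28 (40.6%) did. Over all protein-coding genes the shares were 6.41% and 21.0%. Of the genes with a strong peak 12.7% in the ubiquitin conjugation list and 26.3% of the deubiquitinases had a narrow one. Complex I genes gave 5 of 53 (9.43%) strong narrow and 28 (52.8%) strong wide. All 53 had a promoter peak, and the strong narrow share over all genes with one was 9.25%. Of the complex I genes with a strong peak 15.2% had a narrow one, against 23.5% over all genes. Among the 5 strong narrow ones, Ndufaf7, Ndufaf1, Nubpl and Ecsit act in assembly of the complex.

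The remaining lists had 2 to 13 members each, beside 6.41% of all protein-coding genes and 9.25% of those with any promoter peak. RNA splicing had 13 of 117 (11.1%), chaperones 11 of 102 (10.8%), mitochondrial import 9 of 71 (12.7%), other oxidative phosphorylation 8 of 77 (10.4%) and translation factors 7 of 62 (11.3%). Factors of mRNA 3′ ends, decay and export had 7 of 75 (9.33%), autophagy and lysosome 7 of 80 (8.75%), the proteasome 4 of 50 (8%) and the peroxisome 2 of 26 (7.69%). Counted over genes with any promoter peak, these 4 lists gave 9.46%, 9.33%, 8.16% and 8%, near the share over all genes.

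The 3 members with 3 coding genes were Tmx2, Med19 and Gm28635 (1144 bp), Tmem217, Tbc1d22b and Gm17657 (1968 bp), and Zfp593, E130218I03Rik and Gm30191 (1627 bp). The last measured 1873 bp in pool E against 1336 bp in pool F.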
